A study of Homo sapiens with 47 samples.

Results

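Clustered protocadherins are cell-surface adhesion proteins of the cadherin superfamily, encoded by a row of similar genes in the alpha, beta and gamma clusters. The genes were taken by symbol from a table of RNA-seq counts: every gene on chromosome 5 whose symbol starts with PCDHA, PCDHB or PCDHG. Of 58395 genes in the table, 53 were protein-coding members, 15 in the alpha, 16 in the beta and 22 in the gamma cluster. In addition, 6 pseudogenes and the antisense gene PCDHB1-AS1 carried such a symbol and were kept apart.

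RNA was taken from HEK293T cells, a human embryonic kidney line, and sequenced after ribosomal RNA had been depleted from total RNA. Wild-type cells gave 3 libraries. The EAF1-mutant cells gave the other 3; both alleles of EAF1 had been edited in them by CRISPR knock-in, so that a short stretch of the protein was replaced by alanines. EAF1 is a partner of the ELL elongation factors of RNA polymerase II. The mutant line was expanded from 1 clone, so the effect of the mutation and of the clone's own history cannot be told apart. Total counts per library were 59137210, 52541541 and 55637032 in wild-type replicates 1 to 3 and 57198018, 53369621 and 66611451 in the mutant. The level that 3 counts stand for, taken as the limit that a count of 0 allows, lay between 0.0434 and 0.0594 counts per 1000000 TMM-scaled counts (CPM) depending on the library. This limit covers counting error only. The study calls the replicates of its experiments biological and says that experiments were repeated, with exceptions that do not include RNA-seq. Neither it nor the labels say whether these libraries came from separate cultures, so p-values measure the spread between these libraries, which may be technical.

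EAF1 RNA itself was 57.5, 58.4 and 56.5 CPM in the wild-type libraries and 19.7, 17.9 and 18.8 CPM in the mutant ones. It fell by 1.61 on the log2 scale (SE 0.0452, adjusted p = 2.48e-18, edgeR's quasi-likelihood test with Benjamini-Hochberg adjustment over all genes tested). The edit changes the protein's sequence, so this level does not by itself check the genotype labels. A gene was called changed when the adjusted p was under 0.01 and the log2 difference over 0.5 in size. By that rule 3071 of 28025 tested genes (11.0%) were higher in the mutant and 2624 (9.36%) were lower. With library totals in place of TMM, the median log2 difference of all tested genes moved by 0.12 and the split was 4169 higher and 1840 lower. The share of higher genes among those called thus went from 53.9% to 69.4%.

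In vertebrate neurons each cell uses a small, partly random set of these genes, and the proteins bind the same isoform on the next cell, which lets a neuron tell its own branches from those of others. In the alpha and gamma clusters every gene brings its own promoter and a large first exon, the variable exon, which is spliced to constant exons at the end of the cluster. The beta genes have no constant exons. CTCF and cohesin bind at the promoters and at downstream enhancers, and DNA methylation, SMCHD1 and SETDB1 are known to hold the promoters silent. The C-type genes at the end of the alpha and gamma clusters are used in a more regular way than the others.

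On GRCh38 the alpha genes span chr5:140786136-141012347, the beta genes chr5:141051374-141249365 and the gamma genes chr5:141330514-141512977, all read on the plus strand. All 22 gamma genes share constant exons of 59, 89 and 2029 bases, at chr5:141494807-141494865, chr5:141505393-141505481 and chr5:141510947-141512975. Together these make 2177 bases, against 2459 to 5752 exon bases that belong to 1 gamma gene alone.

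Promoter sequence was matched by symbol for 47 of the 53 genes (RefSeq, GRCh38.p14). Most of these promoters carry a short element around the letters CGCT, which a search of the 250 bases before the start found on the gene's own strand in 45 of 47, against 47.2% of 27305 promoters of the same length. With both strands searched, 45 of 47 and 63.6% held it. The letters began 80 to 30 bases before the start in 40 of 47, against 16.3% of all promoters. A part of a CTCF motif, CNAGNNGGC, was present on either strand in 4 of 47 promoters and in 20.4% of all. A match is a description of letters and marks no binding site, and the absence of these letters says nothing of the factor. The stretches below were picked because the RNA results turn on these genes or because they stand for their cluster. Each runs 5′ to 3′ on the plus strand around the CGCT nearest to 50 bases before the start, and every CGCT in the stretch is in capitals.
PCDHA10, chr5:140855833-140855876: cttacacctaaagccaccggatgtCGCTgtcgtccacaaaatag
PCDHB15, chr5:141245306-141245349: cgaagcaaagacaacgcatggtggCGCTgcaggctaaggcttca
PCDHGA1, chr5:141330395-141330438: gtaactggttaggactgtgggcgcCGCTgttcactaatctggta
PCDHGB1, chr5:141350017-141350060: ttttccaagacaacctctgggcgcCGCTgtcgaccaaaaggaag
PCDHGA11, chr5:141420964-141421007: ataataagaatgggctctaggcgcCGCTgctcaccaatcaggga
PCDHGC3, chr5:141475891-141475934: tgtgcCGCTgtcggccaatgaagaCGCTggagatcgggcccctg
PCDHGC4, chr5:141484944-141484987: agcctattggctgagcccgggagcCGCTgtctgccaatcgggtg

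The bases around the element differed by cluster, as seen in runs that were picked, like the window of 80 to 30 bases, after the sequences had been seen. The most frequent run of 8 bases was ATGTCGCT in the alpha promoters (9 of 13), GGTGGCGC in the beta promoters (12 of 14) and GCCGCTGT in the gamma promoters (11 of 20). With both strands searched, each of these runs was found in its own cluster only and in 0.201%, 1.85% and 1.18% of all promoters. PCDHGA1, PCDHGB1, PCDHGA11, PCDHGC3 (at the first of its 2 capital runs) and PCDHGC4 share the letters gcCGCTg. Whether the element is related to the differences between genotypes was not tested.

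In wild-type cells most fragments on clustered protocadherin genes came from the gamma cluster, and within it 3 genes stood out. With the lowest count of a cluster, taken as shared by its genes, counted once, the gamma cluster stood at 8.14 ± 0.338 CPM, the beta cluster at 1.07 ± 0.258 CPM and the alpha cluster at 0.240 ± 0.103 CPM (SD, n = 3). As deposited, the 22 gamma genes had 106 to 245 counts in each wild-type library, while no alpha gene exceeded 11 counts and no beta gene 24. The gamma values had a common floor. The lowest gamma gene had 129, 125 and 106 counts in wild-type replicates 1 to 3 and 363, 308 and 403 in the mutant, and the median gamma gene was at 134.0, 129.5 and 110.0, then at 386.5, 326.0 and 429.5, so it stood a few counts above the floor in wild-type and further above it in mutant libraries. Such a floor is what a fragment on the constant exons leaves when it is counted once for every gene that holds them. The sources do not state how such fragments were counted. Read that way, the floor is the most that the shared fragments can amount to, and it is called the shared count here. What a gene has above it is called its own count here, a lower bound for fragments that lie on its variable exon alone, except in PCDHGB4 and PCDHGA8, which share further exon bases and whose own counts may hold each other's fragments.

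**Figure D1:**
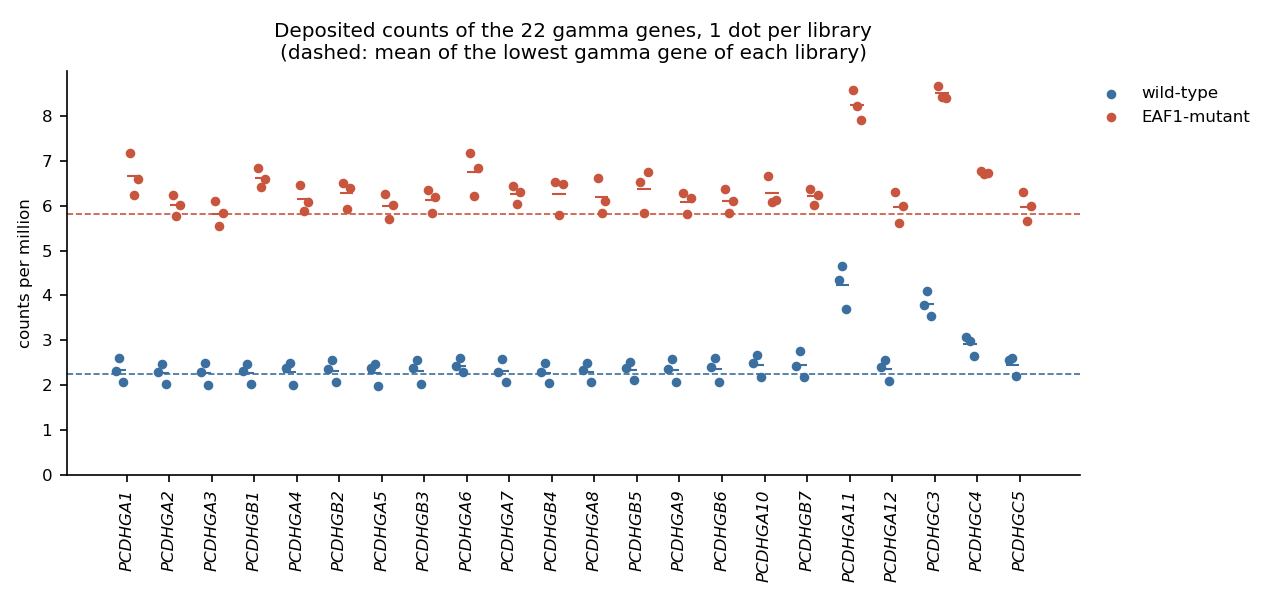
Deposited counts of the 22 gamma genes in CPM (vertical axis), in order along the cluster, with 1 dot per library, a short line for each group's mean and a dashed line for the mean of the lowest gamma gene of each library. The dashed lines are at 2.24 CPM for wild-type and 5.82 CPM for mutant libraries. In wild-type libraries PCDHGA11, PCDHGC3 and PCDHGC4 rise above the others. In the mutant PCDHGA11 and PCDHGC3 do so, while PCDHGC4 (mean 6.73 CPM) is level with PCDHGA6 (6.75), PCDHGA1 (6.67) and PCDHGB1 (6.62).

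PCDHGA11 (ENSG00000253873), the most used gamma A gene, led in wild-type RNA with own counts of 116, 110 and 92. Per kilobase of exon that no other gamma gene holds, this was 0.546 ± 0.0651 CPM (SD, n = 3). PCDHGC3 (ENSG00000240184), a C-type gene, followed with own counts of 85, 82 and 83, or 0.479 ± 0.0185 CPM per kilobase. Over the 3 libraries the ranges of these genes overlapped. PCDHGC4 had 45, 26 and 36 own counts, or 0.237 ± 0.0505 CPM per kilobase, below both in every library. After these came PCDHGB7 (0.0747 ± 0.0243), PCDHGC5 (0.0735 ± 0.0227) and PCDHGA10 (0.0446 ± 0.00285) CPM per kilobase, of which PCDHGB7 and PCDHGC5 did not differ beyond their spread. The other 16 gamma genes were at or below 0.0387 CPM per kilobase. PCDHGA11, PCDHGC3 and PCDHGC4 together held 71.9%, 73.4% and 68.3% of all own gamma counts in the wild-type libraries.

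With the floor read as fragments on them, the shared exons themselves were at 1.03 ± 0.114 CPM per kilobase in wild-type cells. Summed over the 22 genes, the level of the variable exons was 1.78 ± 0.0517 CPM per kilobase. Fragments that cross from a variable to a constant exon count as shared, and total RNA also holds unspliced RNA, in which a downstream variable exon is carried by any transcript begun upstream. Reads of near-identical gamma A or gamma B exons may also have been placed on a neighbour, so the split among these genes is uncertain.

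Between genotypes, every gamma gene was higher in the mutant as deposited: 22 of 22 were called, beside 11.0% of all tested genes. If the floor is shared fragments, these calls are in large part 1 measurement repeated. The log2 differences lay between 0.96 (PCDHGA11) and 1.55 (PCDHGB1), with a median of 1.40, against 0.01 over all genes tested. The shared counts, fitted as a row of their own, were 2.24 ± 0.248 CPM in wild-type and 5.82 ± 0.278 CPM in mutant cells (SD, n = 3). That is a log2 difference of 1.38 (SE 0.104, adjusted p = 9.69e-11, edgeR), or 2.60-fold, with all 3 mutant libraries above all 3 wild-type ones. Per kilobase the shared exons were at 2.68 ± 0.128 CPM in the mutant and the summed variable exons at 4.10 ± 0.103 CPM, both above every wild-type library. With the shared counts taken once and all own counts added, the whole gamma cluster stood at 8.33, 8.35 and 7.75 CPM in wild-type and 19.5, 19.1 and 19.4 CPM in mutant libraries, a log2 ratio of means of 1.25. The gamma cluster thus gave more RNA in the mutant whether the shared fragments were counted once or 22 times. In bulk RNA, more cells using a gene and more RNA per cell cannot be told apart.

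How the additional RNA was spread over the gamma genes was read from the own counts. These were refitted over the whole table in place of the deposited gamma rows (3064 of 28022 genes higher, 10.9%). Own counts do not show at which promoter a transcript began. Of the 22 gamma genes, 18 passed the low-count filter and 14 were called higher. Genes with few wild-type counts passed the filter through the mutant libraries, so this count is not support on its own. None of the 18 was called lower by edgeR, with 0 at an unadjusted p under 0.05 and 0 called lower by DESeq2. PCDHGA2, PCDHGA3, PCDHGA5 and PCDHGA12 did not pass. PCDHGA3 was the lowest gamma gene in all 3 mutant libraries and so set the amount taken off there. In wild-type replicate 1 PCDHGB4 set it, in replicate 2 PCDHGA2, PCDHGB1 and PCDHGA5, and in replicate 3 PCDHGA5. An own count of 0 in these places is fixed by the subtraction. The SE and p of a fit leave out the error of the amount taken off, which weighs most on counts near the floor, so the called A and B genes are given below without them.

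PCDHGB1 (ENSG00000254221), a gamma B gene near the start of the cluster, had own counts of 2, 0 and 2 in wild-type and 44, 49 and 53 in mutant libraries. In the mutant this was 0.796 ± 0.0753 CPM. The fitted log2 difference of 4.88 rests on wild-type counts at the floor and was 2.43 with 90% of the floor taken off. PCDHGA1 (ENSG00000204956), the first gene of the cluster, had 2, 7 and 5 own counts in wild-type and 64, 39 and 53 in mutant libraries. Its fitted log2 difference was 3.25, and the lowest mutant library was several times the highest wild-type one. PCDHGB4, in the middle of the cluster, had 0, 1 and 3 own counts in wild-type and 26, 14 and 44 in mutant libraries, with a fitted log2 difference of 4.06, or 2.02 with 90% of the floor taken off. PCDHGA4 had 5, 1 and 1 against 22, 19 and 17, with a fitted log2 difference of 2.80. With so few wild-type counts these sizes hang on single libraries: PCDHGB4 was at 5.29 without wild-type replicate 3 and at 3.47 without wild-type replicate 1, and PCDHGA4 at 3.88 without wild-type replicate 1. PCDHGA6, a long gamma A gene with own counts of 8, 6 and 16 against 65, 38 and 69, had a fitted log2 difference of 2.30. The remaining called A and B genes lay between 1.20 (PCDHGA10) and 2.80. Among them, PCDHGB2 was at 2.58 and PCDHGB5 at 2.57, the latter at 1.94 without mutant replicate 3. PCDHGA10 was close to the limit: it was no longer called with DESeq2, nor when any library other than mutant replicate 3 was left out.

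By ratio, the genes most used in wild-type cells differed less. PCDHGA11 had 148, 149 and 144 own counts in the mutant, and in CPM the groups overlapped, as mutant replicate 3 (2.09 CPM) lay below wild-type replicate 2. Its log2 difference of 0.28 (SE 0.136, adjusted p = 0.0910) did not pass the test. PCDHGC3 had 153, 161 and 178 own counts, above every wild-type library, and was called higher at 0.78 (SE 0.127, adjusted p = 1.65e-05). On the CPM scale this modest ratio was the largest gain of any gamma gene, 1.12 CPM, against 0.772 for PCDHGB1, 0.759 for PCDHGA1 and 0.738 for PCDHGA6. These gains are not corrected for exon length. Per kilobase, mean levels went from 0.479 to 0.824 CPM for PCDHGC3 and from 0.00934 to 0.307 CPM for PCDHGB1. For PCDHGA1 they went from 0.0216 to 0.205 CPM and for PCDHGA6 from 0.0324 to 0.161 CPM. PCDHGC4 had 40, 65 and 61 own counts, within reach of the 45, 26 and 36 of wild-type cells, with a log2 difference of 0.44 (SE 0.225, adjusted p = 0.108). PCDHGC5 had 12, 6 and 11 against 15, 7 and 12, with a log2 difference of -0.42 (SE 0.399, adjusted p = 0.403). PCDHGB7 was at 0.92 (SE 0.338, adjusted p = 0.0267), short of the limit.

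**Figure D2:**
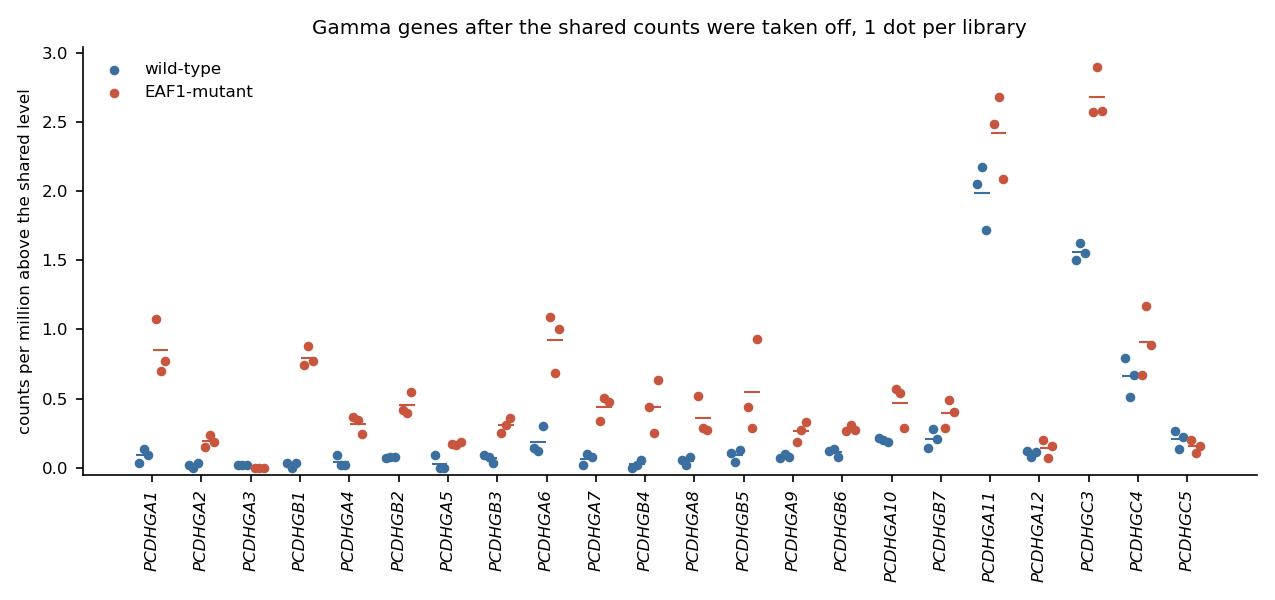
Own counts of the 22 gamma genes in CPM (vertical axis), after the lowest gamma count of each library was taken off, with 1 dot per library and a short line for each group's mean. PCDHGA1, PCDHGB1 and PCDHGA6 leave the bottom of the scale in the mutant, PCDHGC3 moves from 1.56 to 2.68 CPM, and the dots of PCDHGA11 and PCDHGC4 overlap between genotypes.

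These ratios depend on how much is taken off. With 90% of the lowest count removed instead, a choice made after seeing the data, 21 of 22 gamma genes were called higher and the ratios drew closer. PCDHGB1 2.43, PCDHGA1 2.17 and PCDHGB4 2.02 were again the 3 highest. PCDHGA11, at 0.44 (adjusted p = 0.0055, edgeR), then met the p limit but was again under the fold limit. PCDHGC4 (0.74) and PCDHGC5 (0.76) were then called higher, the latter with its sign turned, so no statement on the direction of PCDHGC5 can be made. The part of the floor left in carries its own difference of 1.38, and PCDHGA3, which had no own counts in the mutant, was called at 1.24, so these 21 calls are no count of genes that gained RNA of their own. One comparison is free of the amount taken off, since the shared counts add the same CPM to every gene: the difference between genotypes in deposited CPM was 4.70 for PCDHGC3, 4.35 for PCDHGB1, 4.34 for PCDHGA1, 4.32 for PCDHGA6, 4.04 for PCDHGB5 and 4.01 for PCDHGA11. All other genes were below that, among them PCDHGB4 (4.00), PCDHGB2 (3.96), PCDHGA8 (3.89), PCDHGA4 (3.86) and PCDHGC4 (3.83), down to PCDHGC5 (3.53). On this scale, which is not corrected for exon length, PCDHGA11 thus stood 6 from the top of 22, above most genes with larger ratios.

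The log2 differences were smaller late in the cluster. Across all 22 genes, with 90% of the lowest count removed, Spearman's rho between order in the cluster and log2 difference was -0.72 (Pearson's r -0.76). With the whole of it removed and no low-count filter, which was added after seeing the data, rho was -0.67 and r -0.43 across the same genes. The 18 genes that passed the filter were not used for this, since those with few wild-type counts had passed it through the mutant libraries. These are descriptions over genes that share their libraries, their neighbours and the amount taken off, and order and wild-type level could not be separated, since the genes most used in wild-type cells lie late in the cluster.

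**Figure D3:**
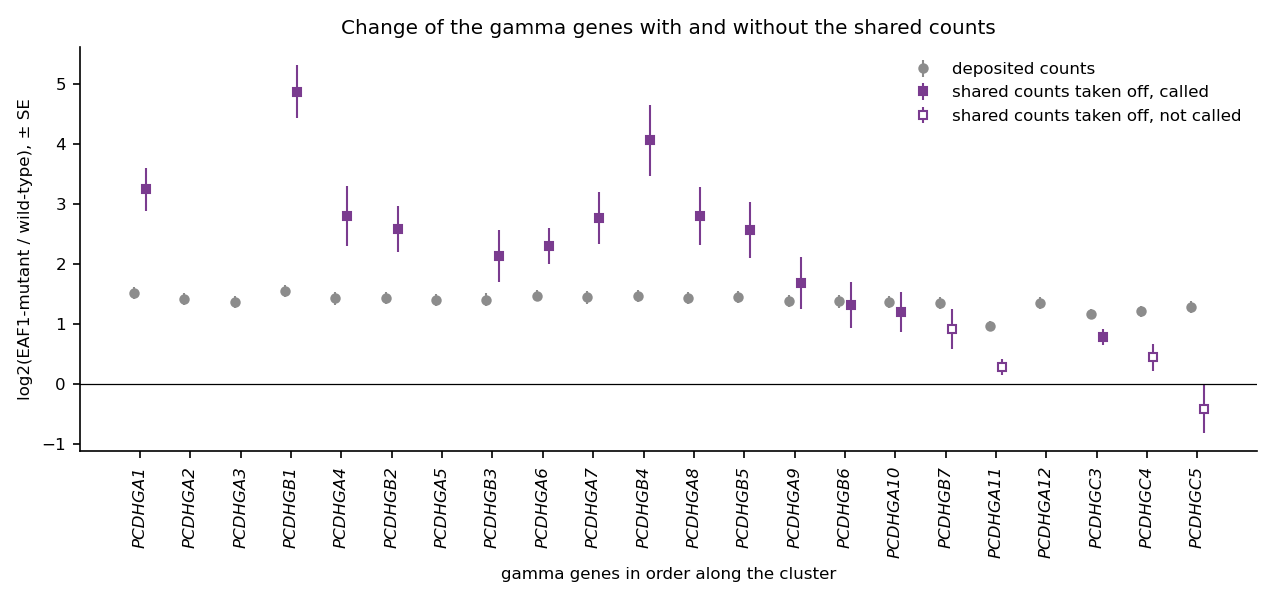
Log2 difference between EAF1-mutant and wild-type (vertical axis, with SE) for the 22 gamma genes in order along the cluster, from deposited counts (grey) and after the shared counts were taken off (purple, filled where called). Deposited values form a band between 0.96 and 1.55, and own counts spread from 4.88 at PCDHGB1 to -0.42 at PCDHGC5. PCDHGB1 and PCDHGB4, the 2 highest, each set the floor in 1 wild-type library.

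The makeup of gamma RNA was broader in the mutant. PCDHGA11, PCDHGC3 and PCDHGC4 together held 42.6%, 49.7% and 40.9% of own counts there, against 68.3% to 73.4% in wild-type libraries. PCDHGA11 alone went from 33.6 ± 3.64% to 17.9 ± 2.25% (SD, n = 3). The gamma B genes together went from 10.3 ± 0.793% to 23.9 ± 4.42%, and the gamma A genes other than PCDHGA11 from 15.0 ± 1.93% to 30.6 ± 3.66%. The number of equally used genes that would give the same spread of shares, 1 over the sum of squared shares, was 5.0, 4.4 and 5.5 in wild-type and 10.1, 9.1 and 11.1 in mutant libraries. In each of these measures the 3 mutant libraries lay apart from the 3 wild-type ones. With 90% of the lowest count removed the 3 leading genes held 44.6 ± 0.700% and 29.4 ± 2.79%. The gamma B genes then went from 20.2 ± 0.787% to 27.8 ± 2.25%, the gamma A genes other than PCDHGA11 from 31.2 ± 0.534% to 40.1 ± 2.11%, and the number of equally used genes from 11.0 ± 0.249 to 16.8 ± 0.902. These are smaller steps in the same direction, with other levels, so the shares themselves depend on the amount taken off. All are shares of counts and are not corrected for exon length.

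**Figure D4:**
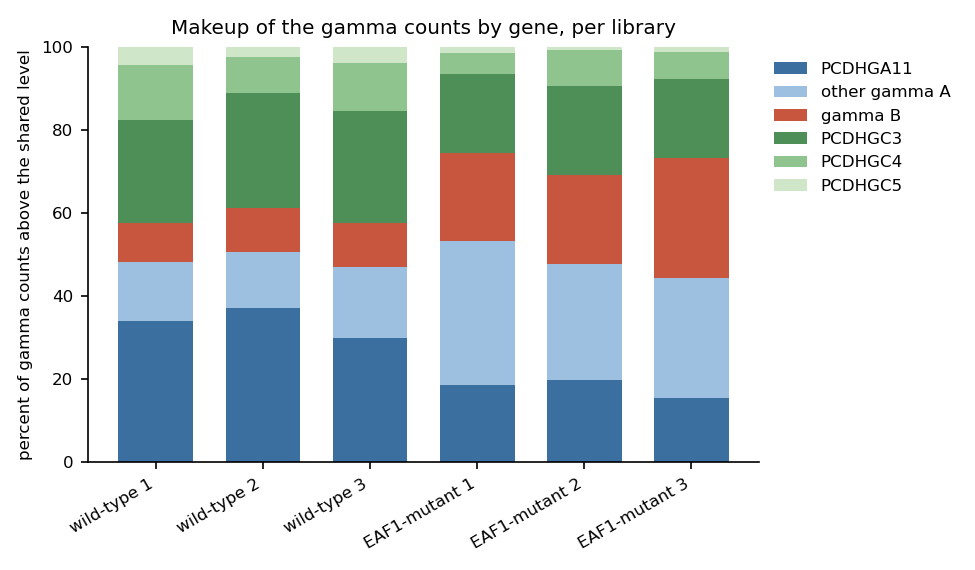
Percent of own gamma counts (vertical axis) that fell on PCDHGA11, on the other gamma A genes, on the gamma B genes and on each C-type gene, with 1 bar per library. The share of PCDHGA11 is 29.8% to 37.0% in wild-type and 15.4% to 19.8% in mutant bars, and gamma B and the other gamma A genes take more of each mutant bar.

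Pseudogenes and noncoding genes inside and just before the gamma cluster do not hold the constant exons. PCDHGB8P, a transcribed pseudogene between PCDHGA11 and PCDHGA12, had 9, 9 and 11 counts in wild-type and 24, 30 and 34 in mutant libraries, a log2 difference of 1.39 (SE 0.310, adjusted p = 0.000588). PCDHGB9P had 3, 2 and 6 against 16, 13 and 5 counts and did not pass the filter. ENSG00000272070, a long noncoding RNA on the plus strand at chr5:141326210-141329363, ends 1151 bases before PCDHGA1. It had 7, 13 and 6 counts in wild-type and 80, 67 and 97 in mutant libraries, a log2 difference of 3.01 (SE 0.262, adjusted p = 1.10e-09), close to that of PCDHGA1. ENSG00000280026, annotated on the minus strand within the PCDHGB1 exon at chr5:141350109-141350662, had 0 counts in all 3 wild-type and 14, 22 and 20 in mutant libraries. Set against the level of 3 counts per library, it was at least 5.46-fold higher. The sources do not state whether strand was used in counting, so its reads and those of PCDHGB1 cannot be told apart. PCDHGB8P, ENSG00000272070 and ENSG00000280026 passed the low-count filter through the mutant libraries, so these calls are not support on their own. The other 3 noncoding genes inside the gamma cluster were near the limit of detection: ENSG00000279855 had 3, 2 and 5 counts in wild-type and 6, 7 and 6 in mutant libraries, ENSG00000273557 had 1, 1 and 0 against 2, 2 and 5, and RN7SL68P had 2, 0 and 6 against 4, 4 and 3. The part of unspliced upstream RNA in the own counts of downstream genes was not tested.

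The beta genes were low. Of 16, only PCDHB2, PCDHB13, PCDHB14 and PCDHB15 passed the filter, and the highest count of any beta gene in any library was 25. None of these 4 was called by edgeR or by DESeq2. At an unadjusted p under 0.05 there were 3 higher and 1 lower, a limit that 28.5% of all tested genes passed as higher and 27.8% as lower. The 3 higher genes, PCDHB13, PCDHB14 and PCDHB15, passed the filter through the mutant libraries, so this split is not support on its own. PCDHB15 had 11, 10 and 5 counts in wild-type and 20, 25 and 21 in mutant libraries, with a log2 difference of 1.14 (SE 0.358, adjusted p = 0.0102). It was called higher with library totals (1.26), with no low-count filter (1.14) and with a replicate block (1.16). PCDHB14 stood at 1.30 (SE 0.409, adjusted p = 0.0102) and was called with library totals (1.42). PCDHB13 was at 1.08 (SE 0.456, adjusted p = 0.0521) and hung on single libraries: it was called without wild-type replicate 3 (1.97) and was at 0.69 without wild-type replicate 1. PCDHB2, the beta gene with the highest wild-type level (0.0808 ± 0.0366 CPM per kilobase), had 24, 8 and 22 counts against 8, 8 and 15, a log2 difference of -0.99 (SE 0.388, adjusted p = 0.0370). Without wild-type replicate 2, its lowest wild-type library, PCDHB2 was called lower at -1.32. PCDHB8, behind PCDHB15 by wild-type level, had 2, 3 and 7 counts against 17, 10 and 3, and its groups overlapped. The sum over the 16 genes was 1.06, 0.811 and 1.33 CPM in wild-type and 2.00, 1.73 and 1.88 CPM in mutant libraries, a log2 ratio of 0.81 with no overlap and no test.

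The alpha genes were at the limit of detection. None of the 15 passed the filter, 9 had 0 counts in at least 2 wild-type libraries, and the highest count was 11, for PCDHA10 in wild-type replicate 2. PCDHA5 had 3, 2 and 4 counts in wild-type and 8, 1 and 6 in mutant libraries. PCDHA11 had 2, 1 and 2 against 4, 0 and 2. Both C-type genes were near 0: PCDHAC1 had 0, 2 and 2 counts against 8, 3 and 1, and PCDHAC2 had 0, 0 and 2 against 4, 0 and 0. The lowest alpha count, which bounds the fragments on the alpha constant exons, was 0, 0 and 2 in wild-type and 4, 0 and 0 in mutant libraries. Counted once for the cluster, alpha RNA stood at 0.159, 0.356 and 0.206 CPM in wild-type and 0.537, 0.522 and 0.434 CPM in mutant libraries. A difference for any single alpha gene was not detectable at this depth.

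**Figure D5:**
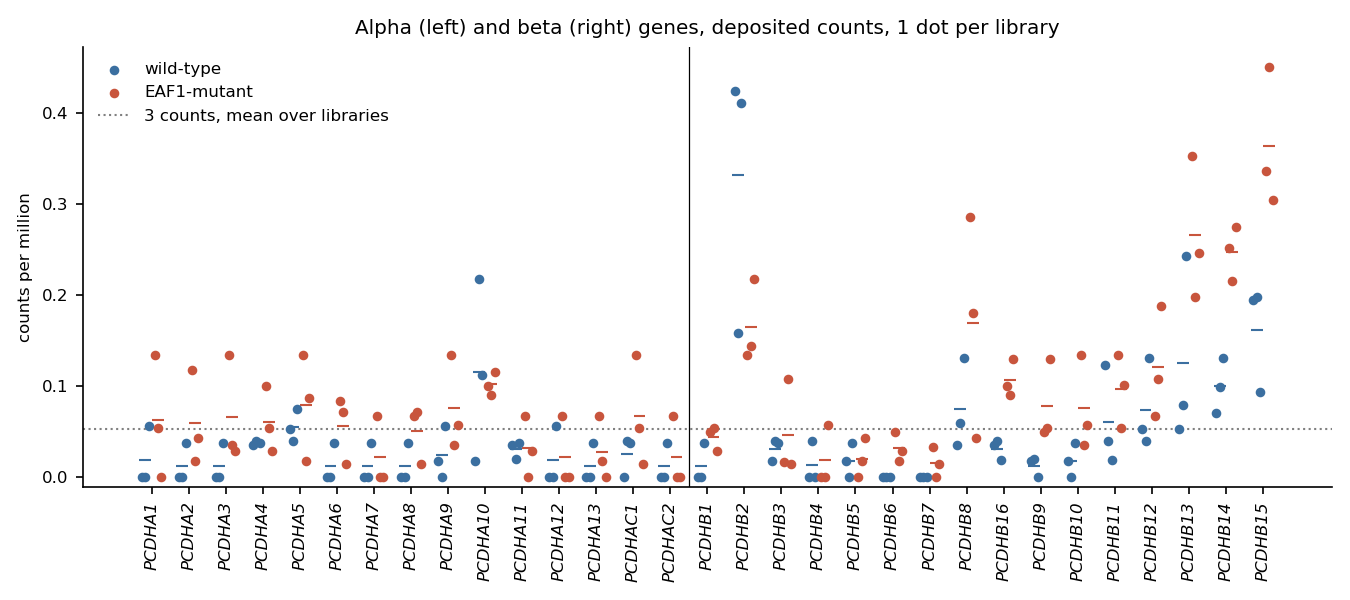
Deposited counts of the 15 alpha (left) and 16 beta genes (right) in CPM (vertical axis), with 1 dot per library, short lines for group means and a dotted line at the level of 3 counts. Most dots lie near the dotted line, and PCDHB2, PCDHB13, PCDHB14 and PCDHB15 are the genes that passed the filter.

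The pseudogenes PCDHA14, PCDHB17P, PCDHB18P and PCDHB19P had at most 9 counts in any library, and PCDHB1-AS1 at most 8, so none passed the filter.

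Factors known to act at these promoters did not reach the limits for a call. Of 22 genes for CTCF, cohesin and its loaders, and silencing or DNA methylation factors, 22 were tested. By edgeR 0 were higher and 0 lower, as by DESeq2, while at an unadjusted p under 0.05 there were 4 higher (18%) and 10 lower (45%), beside 28.5% and 27.8% of all tested genes. The median log2 difference was -0.06, against 0.01 over all genes tested. CTCF was 88.4, 95.9 and 96.5 CPM in wild-type and 79.3, 76.7 and 78.0 CPM in mutant libraries, a log2 difference of -0.26 (SE 0.0405, adjusted p = 8.19e-06), which met the p limit but not the fold limit. The cohesin subunit RAD21 was at 0.03 (SE 0.0412, adjusted p = 0.514). SMCHD1, a silencer of the clusters, was at -0.11 (SE 0.0412, adjusted p = 0.0353). SETDB1, a histone methyltransferase, was at -0.37 (SE 0.0380, adjusted p = 1.81e-08) and was named after its value was seen.

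Protocadherins outside the clusters went in both directions. Of 12, 11 were tested, 3 were higher and 2 lower, with a median log2 difference of 0.34, beside 11.0% higher, 9.36% lower and a median of 0.01 over all tested genes. The same 3 values are the background of the lists that follow. PCDH9, by far the most abundant in counts, fell from 207 ± 6.20 to 108 ± 3.03 CPM (log2 difference -0.94, SE 0.0378, adjusted p = 1.49e-15). PCDH18 fell by 1.21 on the log2 scale (SE 0.104, adjusted p = 9.46e-10). PCDH19 rose from 3.88 ± 0.307 to 8.12 ± 0.372 CPM (log2 difference 1.07, SE 0.0856, adjusted p = 2.79e-10). PCDH17 rose by 0.82 and PCDH8, at 0.149 CPM in wild-type cells, by 1.42 (adjusted p = 0.00330). PCDH8 was no longer called with DESeq2, without wild-type replicate 3 or without mutant replicate 3.

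Among 19 genes for proteins that clustered protocadherins bind or are cut by, 2 rose (11%) and 3 fell (16%), with a median of -0.17, so the share that rose was close to that of all tested genes. BRK1, a small subunit of the WAVE complex that drives actin branching, fell from 58.2 ± 1.14 to 20.2 ± 0.706 CPM (log2 difference -1.53, SE 0.0439, adjusted p = 3.78e-18). It lies at chr3:10115675-10127190, on the same chromosome as EAF1 at chr3:15427598-15450635. Whether its position is related to its fall was not tested. The related WAVE subunits CYFIP1 and CYFIP2 moved apart: CYFIP1 fell by 0.88 (SE 0.0378, adjusted p = 4.52e-15) and CYFIP2 rose by 0.98 (SE 0.0411, adjusted p = 2.97e-15). The kinase gene PTK2B rose by 0.70, and PSEN2, for a catalytic subunit of gamma-secretase, fell by 0.62.

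Around the clusters few genes were called. Of 92 other genes within 1 Mb, 54 were tested, of which 2 rose and 2 fell (3.7% each, beside 11.0% and 9.36% of all tested genes). At an unadjusted p under 0.05 there were 18 higher (33%) and 7 lower (13%), beside 28.5% and 27.8% of all tested genes. Their median log2 difference was 0.11, against 0.02 over the 1189 tested chromosome 5 genes that are not members. The risers were ENSG00000272070 and ENSG00000280026, described above, which had passed the filter through the mutant libraries. ENSG00000254363, a noncoding gene, fell by 1.48 (SE 0.224, adjusted p = 6.48e-06), and NRG2, a neuregulin, by 1.14 (SE 0.152, adjusted p = 1.01e-06), the latter named after its value was seen. TAF7, a subunit of TFIID that lies between the beta and gamma clusters on the minus strand, was 62.2, 71.2 and 65.4 CPM in wild-type and 94.0, 92.3 and 91.5 CPM in mutant libraries. Its log2 difference of 0.48 (SE 0.0441, adjusted p = 2.44e-09) was just under the fold limit, and with library totals (0.60) or without wild-type replicate 2 (0.53) it was called. SLC25A2, beside TAF7, was at -0.04 (SE 0.447, adjusted p = 0.951) with 5 to 14 counts. Past the end of the gamma cluster, DIAPH1 was at 0.06 (SE 0.0516, adjusted p = 0.319) and HDAC3 at -0.21 (SE 0.0371, adjusted p = 6.04e-05).

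Cell type markers were checked against the label and moved between genotypes as well. Of 11 kidney and epithelial markers, 8 were tested, 3 rose and 1 fell, with a median of 0.39. Their summed level was 460, 458 and 480 CPM in wild-type and 345, 346 and 355 CPM in mutant libraries, led by VIM. VIM, an intermediate filament of mesenchymal cells, fell by 0.93 (SE 0.0356, adjusted p = 5.66e-16). The epithelial genes KRT8 (1.38, SE 0.0467, adjusted p = 6.61e-17) and CDH1 (1.27, SE 0.129, adjusted p = 1.37e-08) rose. PAX8, CDH6 and CDH16, which mark kidney epithelium, did not pass the filter. PAX2, LHX1, WT1 and SIX2 of the same list did, at mean wild-type levels of 0.679, 6.24, 5.66 and 14.5 CPM. Of 16 neuronal markers, 11 were tested, 1 rose and 4 fell, with a median of -0.15. Their sum was 157, 166 and 168 CPM in wild-type and 115, 112 and 112 CPM in mutant libraries, led by NEFM in every wild-type and by NEFL in every mutant library, and none of them was at 0 in all libraries. NEFM, a neurofilament, fell by 1.31 (SE 0.0526, adjusted p = 1.35e-15), MAP2 rose from 0.707 ± 0.123 to 2.48 ± 0.190 CPM (log2 difference 1.81, SE 0.159, adjusted p = 1.25e-09), and GAP43 fell by 0.90 (adjusted p = 0.00556), a call lost with DESeq2, with library totals, and without wild-type replicate 3, mutant replicate 2 or mutant replicate 3. Of 8 markers listed for other cell types, 3 were tested and 2 rose, EPCAM, which is itself an epithelial gene, by 2.57 from 0.243 CPM and COL1A1, a collagen gene, by 0.54, with a median of 0.54. COL1A1 was no longer called without wild-type replicate 1 (0.40). Their sum was 5.57, 5.98 and 6.37 CPM in wild-type and 9.30, 9.28 and 10.1 CPM in mutant libraries, and INS was at 0 throughout. The part of these marker shifts in the gamma cluster's change was not tested.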

How the data were processed

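The authors depleted ribosomal RNA, prepared stranded paired-end libraries, aligned reads to GRCh38 and deposited a table of raw counts per gene. The submitters' processing notes name Trimmomatic 0.38, HISAT2 2.3.4.1, R 4.0.2 and DESeq2 1.28.1. The study's methods name another trimming program and Rsubread for counting. The sources do not state the strand and overlap settings.

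Gene names, positions and exon lengths came from GENCODE, matched for 57754 of 58395 gene IDs. Counts of 6 libraries were filtered by filterByExpr, scaled by TMM and fitted with edgeR 4.0.16 (quasi-likelihood, Benjamini-Hochberg over all tested genes) in R 4.3.3. The procedure was tested on simulated data. Levels are counts per 1000000 TMM-scaled counts. Since all gamma genes lay on a common count floor, as shared fragments counted for every gene would leave, the lowest gamma count of each library was taken off and levels were divided by exon bases that no other gene of the cluster holds. This departs from the planned level and was decided after seeing the counts. Alternatives were DESeq2 1.42.0, library totals, other filters, a replicate block, a looser threshold and each library left out.

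Members and lists were chosen with earlier results of these data known. Genes named are the top 3 by wild-type level in the alpha, beta, gamma A and gamma B groups, every C-type gene, and up to 4 called with the largest rise and fall in each cluster. This last ranking was made on deposited counts and again on own counts, so more than 4 gamma genes were named by it. Also named are tested pseudogenes, CTCF, RAD21, SMCHD1, TAF7, SLC25A2, DIAPH1, HDAC3, EAF1, and up to 3 called genes with the largest change per list. Named after their values were seen were PCDHGA2, PCDHGA3, PCDHGA5, PCDHGA8, PCDHB13, PCDHB14, PCDHGB9P, SETDB1, PCDH9, PCDH17, PTK2B, PSEN2, NRG2 and NEFL, beside pseudogenes, markers and noncoding genes of the gamma cluster that were not tested. PAX2, LHX1, WT1 and SIX2 were also named afterwards, for their wild-type levels only. PCDHA3, PCDHA13, PCDHB6, PCDHB11, PCDHGA12 and PCDHGC5 had no promoter entry. 1 planned cell type marker is not reported here. The nascent RNA and chromatin libraries of the series were not used here.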

Additional observations from a re-analysis of the deposited data

How the results depend on the processing

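As deposited, the count of clustered protocadherin genes higher in the mutant was 22 to 24 under every planned setting, and 14 once shared gamma counts were taken off. The count of lower genes was 0, with a range of 0 to 1 when single libraries were left out (PCDHB2, without wild-type replicate 2) and 1 at an adjusted p under 0.05 with no fold limit. That looser setting changes both limits at once, and with it 7250 of all tested genes were higher and 7170 lower. With shared counts taken off, 12 to 16 gamma genes were higher across tools, scalings, filters and left-out libraries (DESeq2 12), and 21 with 90% of the lowest count taken off, under which PCDHGC5 turned from -0.42 to 0.76. That turn comes from the amount taken off. The 3 cluster sums kept their direction in every setting, the plain alpha sum of gene counts least firmly (0.97, and 0.21 without mutant replicate 1). With shared alpha counts taken once, as in the text, it was 1.05 and stayed between 0.83 and 1.45 when single libraries were left out. With a replicate block, 23 clustered genes were called higher as deposited (PCDHB15 in addition) and 13 gamma genes with shared counts taken off. Same-numbered libraries did not deviate together more than others (correlations -0.0061, -0.10 and 0.086, against -0.17 to 0.16 for differently numbered ones). With 3 libraries per group this cannot exclude a pairing, and the labels do not say whether the numbers pair the samples. Of the log2 differences of named genes, 745 of the recomputed values stayed on their side of the limits, 15 no longer passed them, 10 newly passed and 1 passed with its sign turned (PCDHGC5). Among the 745, 6 values of genes not called in either setting turned sign as well (RAD21, SMCHD1, SLC25A2 and DIAPH1). Depth limits the alpha and beta genes and the gamma genes with few own wild-type counts, where 1 or 2 counts can move a value.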
